A study of Homo sapiens with 16 samples.

Results

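The enzymes that take SUMO off proteins and the ubiquitin ligases that recognise SUMO chains were followed across a myeloma RNA-seq experiment. The set was defined by gene symbol and was chosen with earlier results of these data known. It holds the SUMO proteases SENP1, SENP2, SENP3, SENP5, SENP6, SENP7 and USPL1 and the SUMO-targeted ubiquitin ligases RNF4 and RNF111. All 9 genes had a row in the count table of 23354 genes, and all 9 passed the filter on low counts that left 14215 genes for testing. MM1S is a human multiple myeloma cell line that is sensitive to the glucocorticoid dexamethasone (Dex), and MM1R is its Dex-resistant counterpart, which derives from the same parental line. Cells of each line were exposed over 48 h to vehicle (Veh), to TAK-981 at 0.1 μM, to Dex at 1 μM, or to both drugs together (combo). TAK-981 blocks E1, the activating enzyme that starts SUMO conjugation. Total RNA depleted of ribosomal RNA was sequenced from 2 libraries of each of the 8 groups, 16 libraries in all. The labels call the 2 libraries of a group duplicates without saying that they came from separate cultures, so p-values measure the spread between these libraries, which may be technical.

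SUMO is made as a precursor, is cut to expose the end that is joined to lysines, and is later removed from its targets. SENP1 and SENP2 carry out both the maturation and the removal of SUMO. SENP3 and SENP5 are nucleolar enzymes that prefer SUMO2 and SUMO3, SENP6 and SENP7 trim chains of SUMO2 and SUMO3, and USPL1 is a SUMO protease of Cajal bodies that is unrelated in sequence to the SENPs. RNF4 and RNF111 (Arkadia) bind SUMO chains through SUMO-interacting motifs and add ubiquitin to the proteins that carry them. RNF4 acts on PML, the organiser of PML nuclear bodies, and RNF111 acts on the TGF-beta repressors SKI and SKIL. Apart from the maturation of SUMO, which precedes conjugation, these activities come after it, on the products of the step that TAK-981 blocks.

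RefSeq promoter windows were found for 6 of the 9 genes, in 10 windows of build GRCh38.p14, none of them for SENP2, SENP7 or USPL1. Below are the 250 bases before the most upstream start of the pair of genes that were lower under TAK-981 in both lines, SENP1 and RNF4, and of SENP5, the gene whose level moved least, all chosen after their values were seen. Capitals mark, on either strand, AGAACA (a half-site of the glucocorticoid response element, written TGTTCT on the other strand), CCGGAAG (an ETS motif, CTTCCGG on the other strand), GGGCGG (a GC box) and CCAAT. SENP1 lies on chromosome 12 (chr12:48106080-48106329, minus strand), RNF4 on chromosome 4 (chr4:2468856-2469105, plus strand) and SENP5 on chromosome 3 (chr3:196867670-196867919, plus strand).
SENP1: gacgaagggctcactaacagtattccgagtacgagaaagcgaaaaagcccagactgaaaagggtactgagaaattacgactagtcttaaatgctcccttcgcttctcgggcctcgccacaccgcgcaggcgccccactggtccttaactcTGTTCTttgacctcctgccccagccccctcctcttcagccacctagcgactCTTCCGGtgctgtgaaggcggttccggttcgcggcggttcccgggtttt
RNF4: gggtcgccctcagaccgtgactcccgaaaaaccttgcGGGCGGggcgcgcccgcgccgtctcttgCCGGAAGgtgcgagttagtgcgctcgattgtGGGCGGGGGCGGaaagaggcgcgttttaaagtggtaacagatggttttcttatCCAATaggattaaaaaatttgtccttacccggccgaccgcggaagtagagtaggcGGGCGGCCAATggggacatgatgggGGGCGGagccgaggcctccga
SENP5: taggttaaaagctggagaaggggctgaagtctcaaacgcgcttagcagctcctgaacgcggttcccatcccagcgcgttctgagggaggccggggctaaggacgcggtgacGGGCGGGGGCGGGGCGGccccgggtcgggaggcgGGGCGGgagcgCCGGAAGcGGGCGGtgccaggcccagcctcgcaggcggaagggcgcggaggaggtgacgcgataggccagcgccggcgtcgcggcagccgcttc

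The CCGGAAG motif stood in 4 of the 10 windows, against 8.52% of all 35116 RefSeq windows of this length, namely in 2 overlapping SENP1 windows and in 1 each of RNF4 and SENP5. The glucocorticoid half-site stood in 3 of the 10 (12.4% of all windows), in 2 overlapping SENP1 windows and in 1 of RNF111. GGGCGG was found in 6 windows (42.6% of all), CCAAT in 2 (32% of all), and the E-box CACGTG in 0 (6.34% of all). These are matches of letters, not measured binding, and the window of SENP5 shares the CCGGAAG and GGGCGG matches of RNF4.

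In the hg19 build of the count table, SENP1 spans chr12:48436681-48500091 (minus strand), SENP2 chr3:185300507-185348885, SENP5 chr3:196594727-196661584, SENP6 chr6:76311622-76427994, USPL1 chr13:31191830-31233686, RNF4 chr4:2470795-2517586 and RNF111 chr15:59279865-59389618 (all plus strand), and SENP7 chr3:101043118-101232085 (minus strand). SENP3 (chr17:7465309-7475287, plus strand) is the uncertain member, because it lies wholly inside the row of the read-through gene SENP3-EIF4A1. That row stands in for the abundant translation factor gene EIF4A1, which has no row of its own, and SENP3 held only 3.28% to 5.52% of the counts of both rows. The start of SENP1, which is read from the minus strand, overlaps PFKM, a glycolytic enzyme gene on the other strand, by 436 bases. The interval of SENP7 overlaps that of the microRNA row MIR4444-1, which is on the other strand. Whether strand was used in counting is not given in the sources used here.

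Library totals ran from 15707587 to 20644510 counts in MM1S and from 18987739 to 24796539 in MM1R, and the 9 genes had from 204 counts (SENP3) to 4501 counts (SENP5) in a library. All 10 plasma cell and myeloma markers, SDC1, PRDM1 and IRF4 among them, had at least 10 counts in every library, with a summed level of 5037 to 11359 CPM (counts per 1000000 counts after TMM scaling). The labels also name the cells B lymphoblasts, and of the B cell genes examined MS4A1 had at most 2 counts in a library while CR2 had from 919 to 1652. The 2 libraries of TAK-981-treated and of Dex-treated MM1S cells stood apart from each other more than other duplicates, with chi-square divided by its degrees of freedom over genes at 22.6 and 20.4, against 2.15 to 9.66 in the other 6 groups. In TAK-981-treated MM1S cells the log2 difference of replicate 1 minus replicate 2 had a median of 0.05 over genes of at least 5 kb and of −0.10 over genes under 2 kb, and in Dex-treated MM1S cells of 0.08 and −0.12. Levels are relative to the rest of the library, so a change in total RNA per cell, or in the mix of cell states, cannot be told apart from a change in the gene.

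**Figure D1:**
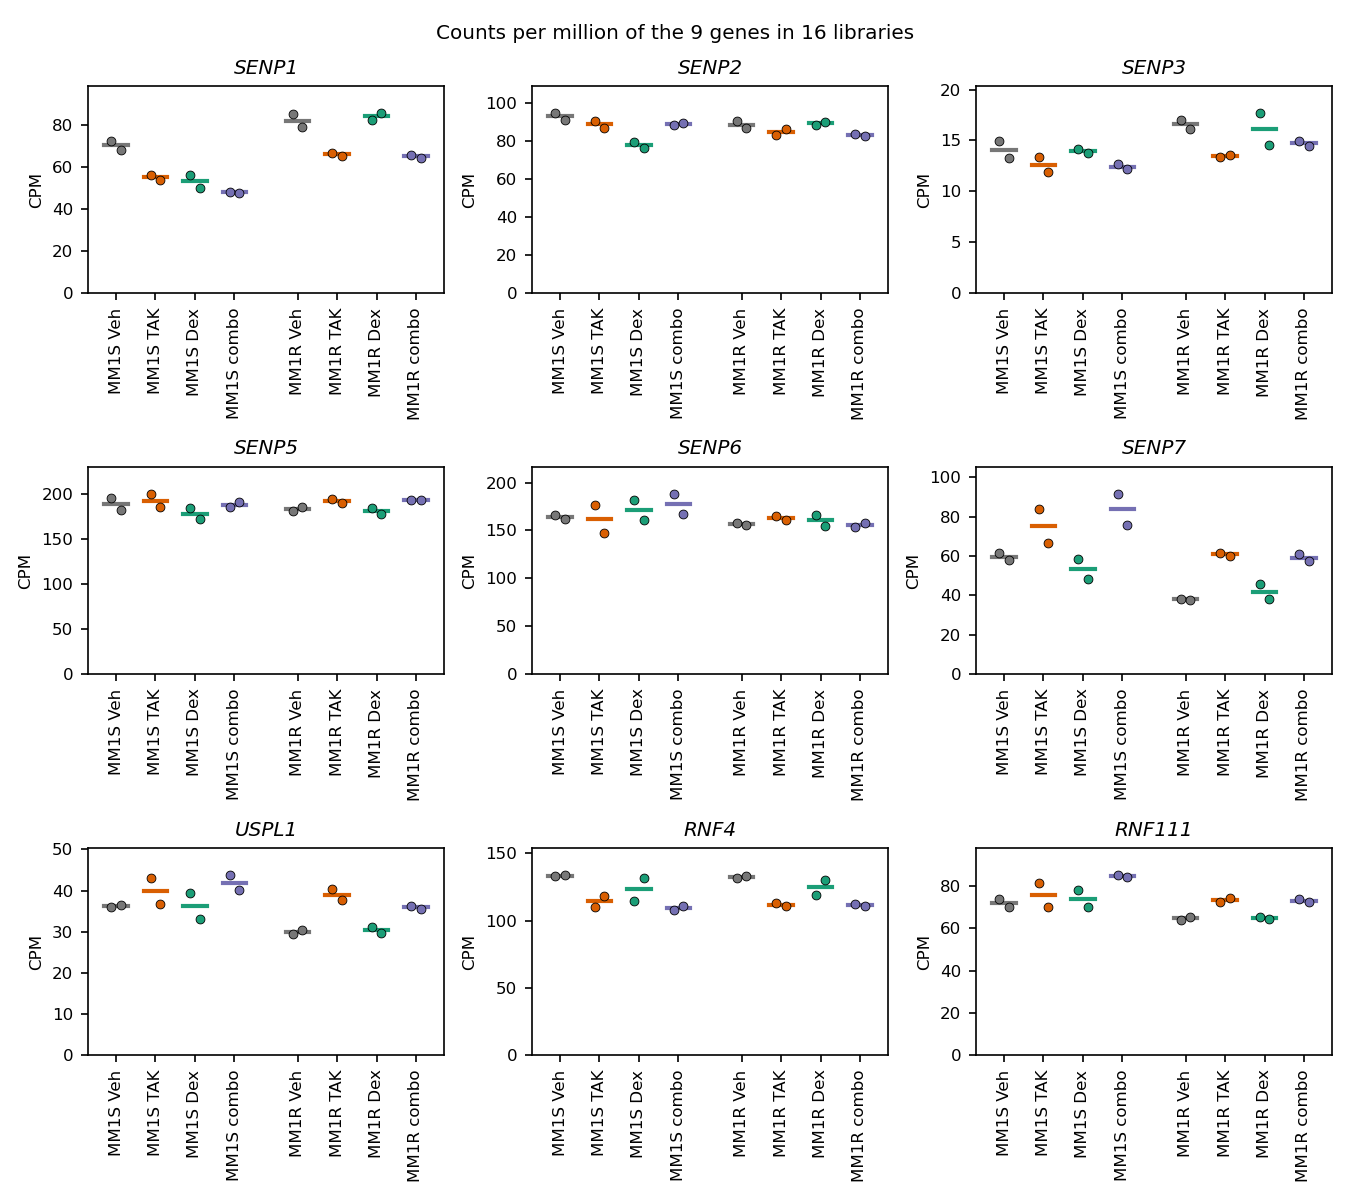
Level of each gene in CPM (vertical axes, each starting at 0) in the 2 libraries (points) of each of the 8 groups, with the group mean as a line. SENP1 and RNF4 sat lower and SENP7 higher in the TAK-981 and combo groups than in the vehicle group of the same line, whereas SENP5 stayed between 172 and 199.9 CPM throughout.

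In untreated cells the levels of the set ran from RNF4 at the top to USPL1 and SENP3 at the bottom. The lowest of them per kb, USPL1 in MM1R, still stood above 35.7% of the tested genes. On the scale of CPM per kb of the gene length in the table, RNF4 stood at 36.4 ± 0.170 (SD, n = 2) in vehicle-treated MM1S cells and at 36.1 ± 0.319 in MM1R cells, above 88.5% and 87.2% of the tested genes. SENP5 (30.0 and 29.1 CPM per kb), SENP2 (28.4 and 27.1) and SENP6 (21.7 and 20.8) followed in both lines. SENP1 (13.0 and 15.2), RNF111 (11.5 and 10.3) and SENP7 (11.2 and 7.16) formed the middle, and USPL1 (4.01 and 3.31) and the uncertain SENP3 (4.01 and 4.72) came last. In MM1S cells the libraries of RNF111 and SENP7 overlapped, as did those of USPL1 and SENP3, and no other neighbours in the order did, SENP5 and SENP2 only narrowly. In MM1R cells the libraries of no neighbours overlapped. With the longest GENCODE transcript as the length, SENP2 fell to 16.3 CPM per kb in MM1S, below SENP6 at 25.3, and USPL1 rose to 8.90, so the place of SENP2 depends on the length used, while RNF4 and SENP5 kept the top places.

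Between the untreated lines, the chain-trimming protease SENP7 had the largest estimated difference of the set. SENP7 measured 61.3 and 57.9 CPM in the vehicle-treated MM1S libraries and 38.3 and 37.8 CPM in those of MM1R. MM1R cells thus held 0.638 times the MM1S level (log2 fold change −0.65, standard error 0.119, edgeR adjusted p = 0.000301). USPL1 was also lower in MM1R, at 29.5 and 30.3 CPM against 36.1 and 36.4 CPM (−0.28, standard error 0.092, edgeR adjusted p = 0.0186). SENP1 was higher in MM1R, at 85.0 and 79.0 CPM against 72.3 and 68.1 CPM (0.22, standard error 0.067, edgeR adjusted p = 0.00999). The 2 lines did not overlap for any of these 3 genes.

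These 3 of 9 genes passed the test between the untreated lines, a share of 33.3%, below the 48.2% of all tested genes. RNF4 had an estimate of −0.01 (95% confidence interval −0.15 to 0.13) and SENP5 of −0.05 (−0.17 to 0.08). The intervals of RNF111 (−0.15, −0.30 to −0.0014) and SENP3 (0.23, 0.02 to 0.45) did not reach 0, but neither passed (edgeR adjusted p = 0.0888 and 0.0704). Both passed with the replicate number as a block (edgeR adjusted p = 0.0263 and 0.0332) and with the compared groups alone (0.00177 and 0.0323), RNF111 also with library size only (0.0272). The USPL1 call was lost when either vehicle library of either line was left out (edgeR adjusted p up to 0.0978), and the SENP1 call was lost without MM1S replicate 2 (adjusted p = 0.102), without MM1R replicate 1 (adjusted p = 0.119) or with scaling by library size only (adjusted p = 0.0685).

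TAK-981 lowered SENP1 and RNF4 and raised SENP7 in both lines, and in MM1R it also raised USPL1 and RNF111 and lowered SENP3. In MM1S 3 of the 9 genes passed the test (33.3%), against 49% of all tested genes, 1 of them higher (25.2% of all genes were higher) and 2 lower (23.7% of all genes). In MM1R 6 of the 9 passed (66.7%), against 53.4% of all tested genes, 3 higher (25.8% of all genes) and 3 lower (27.6% of all genes). The set had a median log2 fold change of −0.02 in MM1S and 0.06 in MM1R, beside 0.04 and 0.00 over all tested genes. In absolute terms the middle log2 fold change of the 9 genes was 0.14 for MM1S and 0.24 for MM1R, below the 0.30 and 0.33 of all tested genes.

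SENP1, which both matures SUMO and removes it, measured 72.3 and 68.1 CPM in vehicle-treated MM1S cells and 56.2 and 53.8 CPM after TAK-981. In MM1R it measured 85.0 and 79.0 CPM with vehicle and 66.7 and 65.1 CPM with TAK-981. Every TAK-981 library lay below every vehicle library of its line. MM1S cells thus held 0.783 times the vehicle level (log2 fold change −0.35, standard error 0.069, edgeR adjusted p = 0.000337). MM1R cells held 0.803 times the vehicle level (−0.32, standard error 0.067, edgeR adjusted p = 0.00068). The call held under all 10 alternative settings in each line (6 of scaling, filter, model or tool, and 4 with 1 library left out), with values between −0.40 and −0.31 for MM1S and between −0.37 and −0.26 for MM1R. The overlapping gene PFKM moved otherwise, with 0.30 in MM1S (edgeR adjusted p = 0.00139) and −0.01 in MM1R (adjusted p = 0.919).

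SENP2, the other protease of both activities, did not follow. It measured 94.8 and 91.3 CPM with vehicle and 90.8 and 87.1 CPM with TAK-981 in MM1S, and 90.5 and 86.7 CPM against 83.2 and 86.4 CPM in MM1R. Its log2 fold change was −0.07 in MM1S (95% confidence interval −0.18 to 0.05) and −0.06 in MM1R (−0.18 to 0.05), and neither passed the test. The estimates of SENP1 in the same comparisons lie outside these intervals.

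Among the nucleolar proteases, SENP5 changed by 0.03 in MM1S (95% confidence interval −0.10 to 0.15) and by 0.07 in MM1R (−0.06 to 0.20). Its values were 195.3 and 182.5 CPM with vehicle and 199.9 and 185.0 CPM with TAK-981 in MM1S, which interleave. In MM1R they were 180.5 and 185.6 CPM with vehicle and 194.1 and 190.0 CPM with TAK-981, without overlap, and SENP5 passed there when the model held the compared groups alone (0.08, edgeR adjusted p = 0.044). SENP3 measured 17.0 and 16.1 CPM with vehicle and 13.4 and 13.5 CPM with TAK-981 in MM1R (−0.30, standard error 0.104, edgeR adjusted p = 0.0215). In MM1S it measured 14.9 and 13.2 CPM against 13.3 and 11.9 CPM and did not pass (−0.16, edgeR adjusted p = 0.237). The row SENP3-EIF4A1, whose interval holds all of SENP3, was lower too, at −0.33 in MM1S (edgeR adjusted p = 0.00351) and at −0.48 in MM1R (edgeR adjusted p = 0.000107), and the 2 sources of reads cannot be told apart. The MM1R call for SENP3 was lost with DESeq2 (adjusted p = 0.0566) and without vehicle replicate 1 (edgeR adjusted p = 0.118), TAK-981 replicate 1 (0.0918) or TAK-981 replicate 2 (0.0776).

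Of the chain-trimming proteases, SENP7 rose and SENP6 did not change detectably. SENP7 in MM1R measured 38.3 and 37.8 CPM with vehicle and 61.6 and 60.0 CPM with TAK-981, which is 1.60 times the vehicle level and the largest change of the set under TAK-981 alone. The log2 fold change was 0.68 (standard error 0.119, edgeR adjusted p = 0.000162) and ran from 0.66 to 0.69 over 10 alternative settings, all past the threshold. In MM1S it measured 61.3 and 57.9 CPM with vehicle and 83.9 and 66.5 CPM with TAK-981, again without overlap (0.34, standard error 0.116, edgeR adjusted p = 0.0244).

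The MM1S call for SENP7 rests on a pair of libraries that differed from each other by 0.33 on the log2 scale, the same pair in which long genes stood higher in replicate 1. SENP7 duplicates also differed under Dex (0.28) and the combination (0.27) in MM1S and under Dex in MM1R (0.27), and by at most 0.09 in the remaining groups. Without TAK-981 replicate 1 the log2 fold change was 0.16 (edgeR adjusted p = 0.289), without vehicle replicate 1 it was 0.38 (adjusted p = 0.0604), and without vehicle replicate 2 it was 0.30 (adjusted p = 0.127). It was also lost with scaling by library size only (0.29, edgeR adjusted p = 0.0769) and when the model held the compared groups alone (0.31, adjusted p = 0.0705). SENP6, USPL1 and RNF111 stood higher in the same replicate 1, by 0.26, 0.23 and 0.22, and the part of gene length in these values was not tested.

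SENP6 measured 166.2 and 162.3 CPM with vehicle and 176.5 and 146.9 CPM with TAK-981 in MM1S, and 157.8 and 155.8 CPM against 165.5 and 161.0 CPM in MM1R. Its log2 fold changes were −0.02 (95% confidence interval −0.19 to 0.15) and 0.06 (−0.11 to 0.23). USPL1, the Cajal body protease, measured 29.5 and 30.3 CPM with vehicle and 40.4 and 37.6 CPM with TAK-981 in MM1R (0.38, standard error 0.092, edgeR adjusted p = 0.00182), a rise that held under all 10 alternative settings. In MM1S it measured 36.1 and 36.4 CPM against 43.2 and 36.8 CPM (0.14, edgeR adjusted p = 0.214), and it passed only without TAK-981 replicate 2 (0.25, adjusted p = 0.0366).

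Of the 2 ubiquitin ligases, RNF4 was lower in both lines, and RNF111 passed as higher in MM1R alone. RNF4 measured 133.0 and 133.9 CPM with vehicle and 110.3 and 118.0 CPM with TAK-981 in MM1S (−0.23, standard error 0.068, edgeR adjusted p = 0.0107). In MM1R it measured 131.6 and 133.2 CPM against 113.1 and 110.5 CPM (−0.24, standard error 0.068, edgeR adjusted p = 0.0057). Vehicle and TAK-981 libraries of RNF4 did not overlap in either line, and the MM1S call was lost only without TAK-981 replicate 1 (−0.18, adjusted p = 0.0623). RNF111 measured 64.1 and 65.3 CPM with vehicle and 72.5 and 74.4 CPM with TAK-981 in MM1R (0.18, standard error 0.072, edgeR adjusted p = 0.0401). That call was lost under 7 of 10 alternative settings, DESeq2 among them (adjusted p = 0.0685). In MM1S RNF111 measured 73.8 and 70.0 CPM against 81.3 and 69.9 CPM and did not pass (0.07, 95% confidence interval −0.08 to 0.22, edgeR adjusted p = 0.435), with a value of −0.042 without TAK-981 replicate 1.

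**Figure D2:**
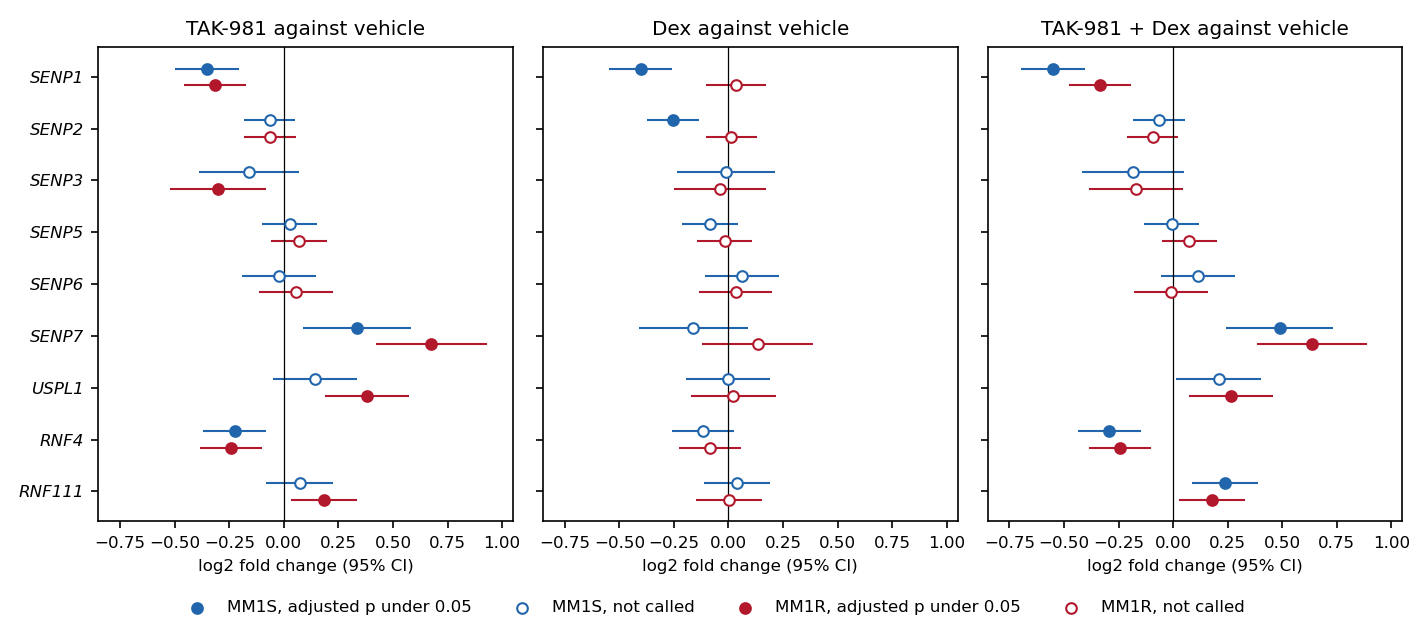
Log2 fold change against vehicle (horizontal axis, bars are 95% confidence intervals) of the 9 genes under TAK-981, Dex and the combination in MM1S (blue) and MM1R (red); filled points passed edgeR's test at an adjusted p under 0.05. The 3 panels use the same vehicle libraries within a line. SENP7 had the largest rise under TAK-981 (0.34 and 0.68), and under Dex only SENP1 (−0.40) and SENP2 (−0.26) in MM1S passed.

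A test of the difference between lines passed for 0 of the 9 genes with edgeR, where 4.16% of all tested genes passed. The count was also 0 at an unadjusted p under 0.05, and 0 with DESeq2. The larger estimates were those of SENP7, whose rise was greater in MM1R by 0.34 (95% confidence interval −0.01 to 0.69, edgeR adjusted p = 0.25), and of USPL1, by 0.24 (−0.03 to 0.51, edgeR adjusted p = 0.293). Without MM1S TAK-981 replicate 1 the SENP7 difference was 0.52 (edgeR adjusted p = 0.0314), and the number of all genes that passed went from 592 to 2329.

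Under Dex, SENP1 and SENP2 fell in MM1S and did not change detectably in MM1R. SENP1 fell in MM1S from 72.3 and 68.1 CPM to 56.2 and 50.0 CPM (−0.40, standard error 0.069, edgeR adjusted p = 0.000117). SENP2 fell in MM1S from 94.8 and 91.3 CPM to 79.5 and 76.4 CPM (−0.26, standard error 0.057, edgeR adjusted p = 0.00131). Neither gene's Dex libraries overlapped its vehicle libraries in MM1S, and both calls held under all 10 alternative settings. In MM1R SENP1 measured 82.3 and 85.6 CPM and SENP2 88.7 and 90.1 CPM under Dex, with log2 fold changes of 0.03 (95% confidence interval −0.10 to 0.17) and 0.01 (−0.10 to 0.13).

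These were the 2 of 9 genes (22.2%) that passed under Dex in MM1S, against 42.3% of all tested genes. In MM1R 0 of 9 passed with edgeR, as for all tested genes (0%), where 395 genes and 0 of the 9 had an unadjusted p under 0.05 and DESeq2 called 0 genes. The difference between the lines itself passed for SENP1 (0.44, standard error 0.095, edgeR adjusted p = 0.00203) and for SENP2 (0.27, standard error 0.080, edgeR adjusted p = 0.0167), 2 of 9 or 22.2%, against 28.1% of all tested genes. The SENP1 difference held under all 14 alternative settings (0.35 to 0.52). The SENP2 difference was lost under 5 of 14, with no filter on low counts (edgeR adjusted p = 0.0615) and without MM1S vehicle replicate 1 (0.0738), MM1S Dex replicate 2 (0.0621), MM1R vehicle replicate 2 (0.0839) or MM1R Dex replicate 2 (0.0505).

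The other 7 genes did not pass under Dex in MM1S. SENP7 measured 58.5 and 48.2 CPM (−0.16, 95% confidence interval −0.41 to 0.09), and RNF4 114.3 and 132.0 CPM (−0.12, −0.26 to 0.03), the latter within a pair of libraries that differed by 0.21 on the log2 scale. Without Dex replicate 2 RNF4 passed (−0.22, edgeR adjusted p = 0.0254), and SENP7 passed with the replicate number as a block (−0.16, edgeR adjusted p = 0.0465). SENP3, SENP5, SENP6, USPL1 and RNF111 had log2 fold changes from −0.08 to 0.06.

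By group mean, the lowest SENP1 and the highest SENP7 of the 8 groups were both found in MM1S cells under the combination. SENP1 measured 48.2 and 47.7 CPM there, 0.683 times the vehicle level (−0.55, standard error 0.070, edgeR adjusted p = 1.86e-06), and 65.8 and 64.1 CPM in MM1R (−0.34, standard error 0.067, edgeR adjusted p = 0.00039). SENP7 measured 91.5 and 75.9 CPM in MM1S (0.49, standard error 0.116, edgeR adjusted p = 0.00164). In MM1R it measured 60.9 and 57.4 CPM (0.64, standard error 0.119, edgeR adjusted p = 0.000283). RNF4 measured 107.6 and 110.5 CPM in MM1S (−0.29, edgeR adjusted p = 0.00125) and 112.5 and 111.1 CPM in MM1R (−0.24, edgeR adjusted p = 0.00582). RNF111 measured 85.3 and 84.4 CPM in MM1S (0.24, edgeR adjusted p = 0.00832) and 74.0 and 72.3 CPM in MM1R (0.18, edgeR adjusted p = 0.0474).

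With USPL1 in MM1R (36.4 and 35.4 CPM, 0.26, edgeR adjusted p = 0.0224), 4 of 9 genes passed against vehicle in MM1S (44.4%, against 60.3% of all genes) and 5 of 9 in MM1R (55.6%, against 51.5% of all genes). USPL1 in MM1S had 0.21 and did not pass (edgeR adjusted p = 0.0582). It passed there with the replicate number as a block (edgeR adjusted p = 0.014) and with the compared groups alone (0.0271). The MM1R calls of USPL1 and RNF111 were each lost whenever a vehicle or combo library of MM1R was left out, with edgeR adjusted p up to 0.109 and 0.181. RNF111 in MM1R was also lost under 4 other settings, DESeq2 among them (adjusted p = 0.0871), and the RNF111 call in MM1S was lost without vehicle replicate 2 (0.0752). The TAK-981, Dex and combo comparisons of a line share its vehicle libraries, so these values are not independent of each other.

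Set against TAK-981 alone, the combination changed 1 of 9 genes in MM1S (11.1%, against 35.1% of all genes), namely SENP1 (−0.20, standard error 0.071, edgeR adjusted p = 0.0374). This call was lost under 7 of 10 alternative settings, DESeq2 among them (adjusted p = 0.0682), and without TAK-981 replicate 1 (0.124), combo replicate 1 (0.103) or combo replicate 2 (0.13). Without TAK-981 replicate 1, RNF111 (0.28, edgeR adjusted p = 0.00515), SENP6 (0.27, adjusted p = 0.00934) and SENP7 (0.33, adjusted p = 0.0356) passed as higher instead, where with all libraries they had 0.17, 0.14 and 0.15. RNF111 also passed with scaling by library size only (0.21, edgeR adjusted p = 0.0426), and with the replicate number as a block both RNF111 (0.17, adjusted p = 0.0182) and SENP6 (0.14, adjusted p = 0.0394) did. In MM1R 0 of 9 and 0% of all genes passed with edgeR and with DESeq2, and 214 genes and 0 of the 9 had an unadjusted p under 0.05. SENP2 was the 1 gene of the set that passed the test of whether the effect of both drugs together in MM1S departs from the sum of the single effects on the log2 scale. It measured 88.5 and 89.3 CPM under the combination, close to vehicle, against 79.5 and 76.4 CPM under Dex alone.

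The TAK-981 by Dex interaction of SENP2 in MM1S was 0.26 (standard error 0.080, edgeR adjusted p = 0.0398), 1 of 9 genes or 11.1%, against 14.9% of all genes. It was lost under 8 of 14 alternative settings, among them no filter on low counts (edgeR adjusted p = 0.113), a model of the compared groups alone (edgeR adjusted p = 0.178) and without vehicle replicate 1 (0.147), vehicle replicate 2 (0.0637), TAK-981 replicate 2 (0.114), Dex replicate 2 (0.141), combo replicate 1 (0.0847) or combo replicate 2 (0.0811). In MM1R the interaction passed for 0 of 9 and 0% of all genes with edgeR and with DESeq2, and 400 genes and 0 of the 9 had an unadjusted p under 0.05. SENP7 had an interaction estimate of 0.31 in MM1S (95% confidence interval −0.04 to 0.66) and of −0.17 in MM1R (−0.53 to 0.18). Without TAK-981 replicate 1 the MM1S value of SENP7 was 0.49 (edgeR adjusted p = 0.0253).

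Set against Dex alone, adding TAK-981 raised SENP7 by 0.65 in MM1S (standard error 0.117, edgeR adjusted p = 0.000253). For MM1R it raised SENP7 by 0.50 (standard error 0.118, edgeR adjusted p = 0.00215). Both values held under all 10 alternative settings. In MM1S SENP2 (0.19, edgeR adjusted p = 0.0106) and RNF111 (0.20, adjusted p = 0.0307) were also higher and RNF4 was lower (−0.18, adjusted p = 0.0432), which makes 4 of 9 (44.4%, against 47.6% of all genes). In MM1R SENP1 was lower (−0.37, edgeR adjusted p = 0.000169) and USPL1 higher (0.24, adjusted p = 0.0371), which makes 3 of 9 (33.3%, against 48.4%). The MM1S estimates were −0.15 for SENP1 (edgeR adjusted p = 0.0967) and 0.21 for USPL1 (adjusted p = 0.069), and neither passed. USPL1 passed there with the replicate number as a block (edgeR adjusted p = 0.0159). Without Dex replicate 2 the MM1S values went to 0.17 for SENP2 (adjusted p = 0.0727), 0.13 for RNF111 (0.248) and −0.06 for RNF4 (0.553). The RNF111 and RNF4 calls were also lost without either combo library, and the USPL1 call in MM1R without any of the 4 libraries compared (adjusted p up to 0.183). With all libraries, the MM1S calls of SENP2 (edgeR adjusted p = 0.0705), RNF111 (0.0663) and RNF4 (0.141) were lost when the model held the compared groups alone. SENP2 was lost with no filter (edgeR adjusted p = 0.0552), RNF4 with library size only (0.0535), RNF111 with DESeq2 (adjusted p = 0.0584), and USPL1 in MM1R with DESeq2 (adjusted p = 0.0651) and with library size only (edgeR adjusted p = 0.0707). RNF4 and RNF111, not called in MM1R against Dex alone, passed there with the replicate number as a block (−0.16 and 0.17, edgeR adjusted p = 0.0164 and 0.0113) and with the compared groups alone.

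Within the summed level of the SENPs other than SENP3, the share of SENP7 was higher and that of SENP1 lower under TAK-981. The sum of SENP1, SENP2, SENP5, SENP6 and SENP7 was 104 ± 3.59 CPM per kb (SD, n = 2) in vehicle-treated MM1S cells and 103 ± 7.85 after TAK-981, and 99.2 ± 1.30 and 102 ± 0.585 in MM1R. SENP7 made up 10.7% ± 0.063 of that sum in MM1S with vehicle and 13.6% ± 1.20 with TAK-981. In MM1R its share was 7.21% ± 0.019 with vehicle and 11.3% ± 0.135 with TAK-981. SENP1 went the other way, with 12.5% ± 0.103 under vehicle and 9.87% ± 0.440 under TAK-981 in MM1S, and with 15.3% ± 0.593 and 12.0% ± 0.138 in MM1R. Under Dex alone the sum in MM1S was 94.7 ± 6.12 CPM per kb, the lowest of the 8 groups. These sums use the table's gene lengths.

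**Figure D3:**
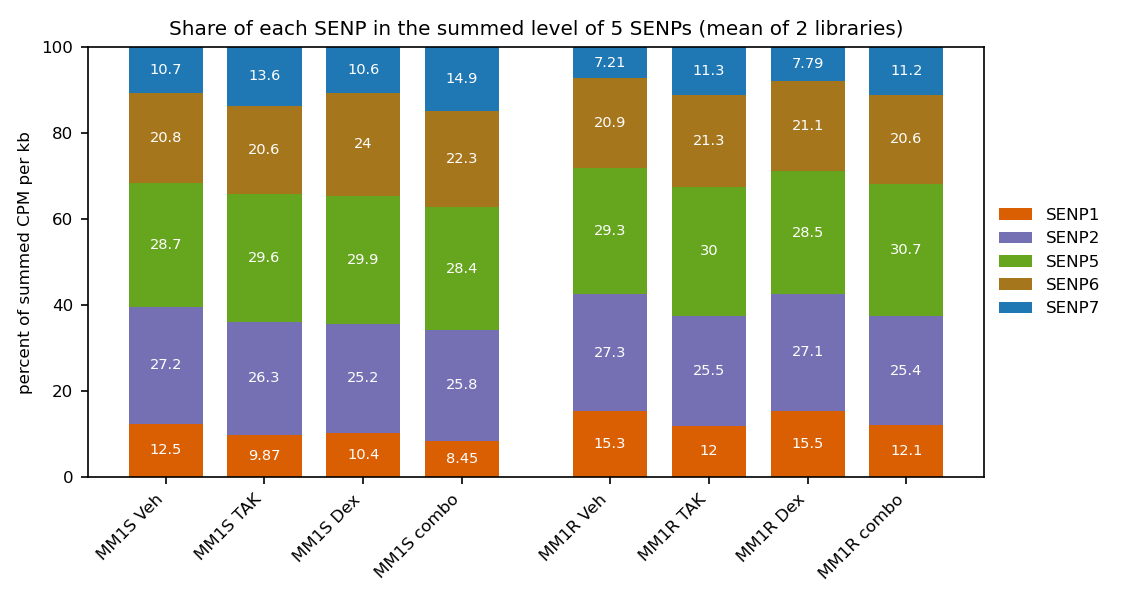
Share of each of 5 SENPs (colours) in their summed level in CPM per kb (vertical axis, percent) for the 8 groups, as the mean of 2 libraries. SENP7 took 10.7% in vehicle-treated and 13.6% in TAK-981-treated MM1S cells and 7.21% and 11.3% in MM1R cells.

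Ratios of 2 genes within a library do not depend on scaling between libraries. The ratio of SENP7 to SENP6, the pair of chain-trimming proteases, was 0.524 and 0.507 in vehicle-treated MM1S libraries and 0.676 and 0.643 in TAK-981-treated ones, 0.457 and 0.426 under Dex and 0.691 and 0.644 under the combination. In MM1R it was 0.345 and 0.345 with vehicle, 0.529 and 0.530 with TAK-981, 0.391 and 0.348 with Dex and 0.563 and 0.519 with the combination. The Dex libraries lay below the vehicle libraries in MM1S and above them in MM1R. The TAK-981 pair of MM1S libraries, which differed by 0.33 on the log2 scale for SENP7 alone, thus lay close together in this ratio. The ratio of SENP1 to SENP2 was 0.463 and 0.453 with vehicle, 0.376 and 0.375 with TAK-981, 0.429 and 0.397 with Dex and 0.330 and 0.324 with the combination in MM1S. In MM1R it was 0.570 and 0.552 with vehicle, 0.486 and 0.457 with TAK-981, 0.563 and 0.576 with Dex and 0.478 and 0.471 with the combination.

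**Figure D4:**
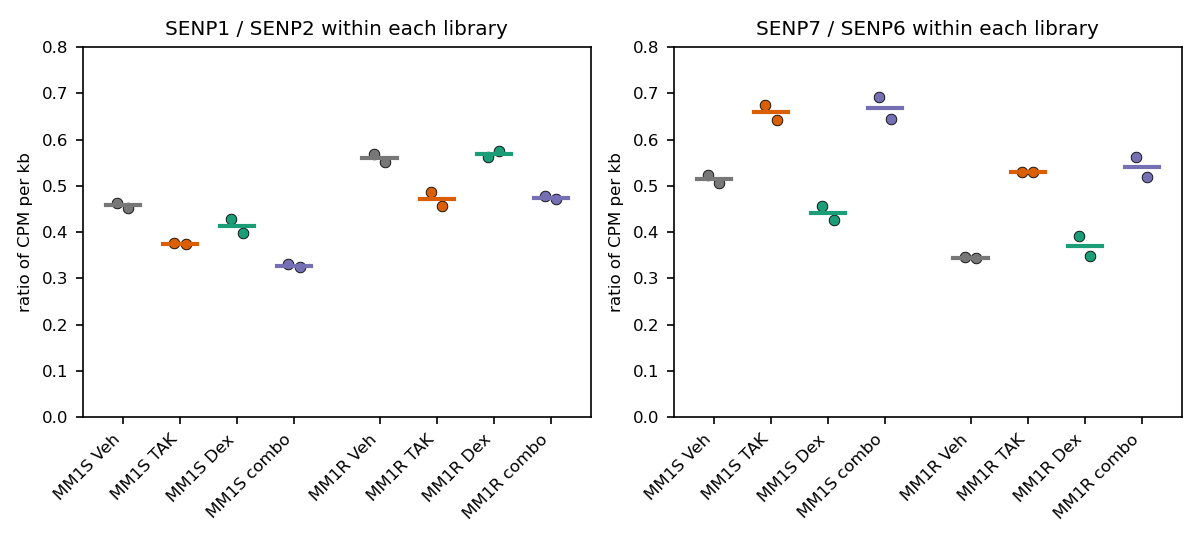
Ratio of SENP1 to SENP2 (left) and of SENP7 to SENP6 (right) in CPM per kb within each library (points), with the group mean as a line; both vertical axes start at 0. The SENP7 to SENP6 ratio was 0.507 to 0.524 with vehicle and 0.643 to 0.676 with TAK-981 in MM1S, and 0.345 and 0.529 to 0.530 in MM1R.

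Among the other genes of the pathway, the enzymes that attach SUMO moved both ways under TAK-981. Of 15 SUMO and conjugation genes 6 rose and 2 fell in MM1S and 4 rose and 3 fell in MM1R, with medians of 0.10 and 0.06. The shares over all tested genes were 25.2% up and 23.7% down for MM1S, and 25.8% up and 27.6% down for MM1R. SAE1, a subunit of the E1 enzyme that TAK-981 inhibits, stood at −0.90 in MM1S (edgeR adjusted p = 1.59e-09) and at −0.93 in MM1R (adjusted p = 1.13e-09), a larger change than that of any protease or ligase of the set in those comparisons. Of 5 other isopeptidases and deubiquitinases 1 rose and 3 fell in each line. DESI2, named for the deSUMOylating isopeptidase family, stood at −0.44 in MM1S (edgeR adjusted p = 0.000789). USP7, a deubiquitinase that acts on SUMO-rich replication sites, stood at −0.26 in MM1R (edgeR adjusted p = 0.000313).

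In the lists of ligase effectors and of nucleolar partners below, no gene passed as higher under TAK-981. Of all tested genes 25.2% (MM1S) and 25.8% (MM1R) did, and 23.7% and 27.6% passed as lower. Of 11 genes that work with or after SUMO-targeted ubiquitin ligases, 0 rose and 5 fell in MM1S and 0 rose and 6 fell in MM1R (medians −0.25 and −0.21). SIMC1, a SUMO-binding protein of the SMC5/6 pathway, changed by −0.75 in MM1S (edgeR adjusted p = 2.98e-05), and UFD1, a cofactor of the segregase VCP, by −0.45 in MM1R (adjusted p = 4.3e-06). Of 7 nucleolar partners of SENP3 and SENP5, 0 rose in either line, while 4 fell in MM1S and 5 in MM1R (medians −0.19 and −0.45). NPM1, the nucleolar protein that SENP3 deSUMOylates, stood at −0.42 in MM1S (edgeR adjusted p = 3.15e-05) and at −0.76 in MM1R (adjusted p = 2.27e-08).

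The genes of the TGF-beta branch and of PML bodies stand beside the same shares of all tested genes (for MM1S 25.2% up and 23.7% down, for MM1R 25.8% up and 27.6% down). Of 7 genes of the TGF-beta branch around RNF111, 2 rose and 0 fell in MM1S and 3 rose and 1 fell in MM1R (medians 0.07 and 0.16), with SMAD3, a TGF-beta signal transducer, at 0.92 in MM1S (edgeR adjusted p = 7.38e-09) and 1.34 in MM1R (adjusted p = 1.67e-10). Of the 3 PML body genes, PML, SP100 and DAXX, 3 rose in MM1S and 2 in MM1R. SP100, a PML body component, rose from a mean of 72.9 to 134 CPM in MM1S (0.88, edgeR adjusted p = 6.44e-08). In MM1R it rose from 44.3 to 117 CPM (1.40, edgeR adjusted p = 2.76e-10). The medians of all tested genes in these comparisons were 0.04 and 0.00.

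Over the 8 group means of log2 CPM, SENP7 had the widest range of the set (1.13), followed by SENP1 (0.81) and USPL1 (0.48), and SENP5 the narrowest (0.11). The genes most like SENP7 among 9645 with a mean log2 CPM of at least 3 were USP33, a deubiquitinase (Pearson r = 0.997 over 8 groups), and PURB, a nucleic acid binding protein (r = 0.992). For SENP1 they were TRIM37, a ubiquitin ligase (r = 0.996), and AARS, the alanine tRNA synthetase (r = 0.996). For USPL1 they were UBXN7, a cofactor of VCP (r = 0.99), and ZNF525 (r = 0.987). The points share the same libraries and the 4 treatments, and with 8 points many genes reach high values.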

How the data were processed

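RNA-seq of MM1S and MM1R cells (16 libraries, 8 groups) was analysed from the count table that the authors deposited, which gives raw read counts per gene, not normalized, with positions and gene lengths. The submitters' processing notes name bcl2fastq 2.18.0.12, STAR 2.6.0, HTSeq 0.6.0, edgeR 3.28.1 and the build hg19. The table held 0 sample columns that were left unused. Libraries were matched to groups by their titles.

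Genes were kept with edgeR's filterByExpr (minimum count 10), scaled with TMM and fitted with 1 term per group in edgeR's robust quasi-likelihood model over all libraries (8 residual degrees of freedom). In all 15 comparisons were tested, and a gene was called at a Benjamini-Hochberg adjusted p under 0.05 over all 14215 genes. Standard errors were computed as the absolute log2 fold change divided by the square root of the F statistic of the contrast. The 95% confidence intervals used these errors with a t quantile. Levels are CPM, divided by the deposited gene length where genes are compared. Log2 CPM used a prior count of 2. The script was tested on simulated data.

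The genes of the set and the 6 pathway lists were chosen with earlier results of these data known. All 9 genes of the set are described; at most 2 genes of a list are named, those with the smallest adjusted p under TAK-981 in each line. Likeness was computed for the 3 genes of the set with the widest range, naming the 2 most correlated genes. Lists of B cell, T or NK cell, myeloid, stromal and erythroid markers had summed levels of 49.4 to 76.2, 0.62 to 5.76, 0.66 to 4.12, 0.62 to 13.5 and 1.30 to 13.0 CPM, the first almost all from CR2.

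Alternatives were RLE scaling, library size only, no filter, a replicate block within each line, DESeq2, a model of the compared groups alone, each library left out, and other gene lengths from GENCODE 29 by symbol. For calls with 1 library left out, the lone library was assumed to vary like the other groups; counts of calls under that setting were added after seeing the data. Promoters are from RefSeq on GRCh38.p14, a different build from the count table. The analysis used edgeR 4.0.16, limma 3.58.1 and DESeq2 1.42.0 in R 4.3.3.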

Additional observations from a re-analysis of the deposited data

Results flagged for a closer look

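SENP1 differed between the lines in its response to Dex by the test of the difference itself, with the MM1R response higher by 0.436387 on the log2 scale (edgeR adjusted p = 0.00203). The MM1S libraries went from 72.3 and 68.1 to 56.2 and 50.0 CPM, and the MM1R libraries from 85.0 and 79.0 to 82.3 and 85.6 CPM.

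SENP2 differed in the same way, with the MM1R response to Dex higher by 0.268633 (edgeR adjusted p = 0.0167). SENP2 also had a TAK-981 by Dex interaction in MM1S of 0.255988 (edgeR adjusted p = 0.0398), with 88.5 and 89.3 CPM under both drugs against 79.5 and 76.4 CPM under Dex alone. Both use the MM1S Dex libraries, which stood apart from each other over all genes. The line difference of SENP2 kept its call under 9 of 14 alternative settings and its interaction under 6 of 14.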

How the results depend on the processing

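Of the 135 pairs of a gene of the set and a comparison, 43 were followed value by value, namely the 18 under TAK-981 against vehicle and those called elsewhere. Of their 258 values under settings with all libraries, 230 kept their direction and side of the threshold, 26 lost the call, 1 gained it and 1 turned, SENP5 under TAK-981 in MM1S with library size only (−0.022). With 1 library left out, 129 of 184 kept both, 50 lost the call, 1 gained it and 4 turned, all small TAK-981 values in MM1S, where SENP5 ran from −0.030 to 0.081, SENP6 from −0.160 to 0.104 and RNF111 from −0.042 to 0.177. The cause was not tested. Over all 135, 101 were not called, and of their 606 values with all libraries 22 passed (12 of them with the replicate block), in 14 of the 101; with 1 library left out 10 of 536 passed.

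Correlations of replicate deviations lay between 0.016 and 0.263 in MM1S and between −0.013 and 0.082 in MM1R, 2 of 6 and 0 of 6 of them over 0.1. Replicate deviations thus went together weakly in MM1S, for TAK-981 with Dex (0.263) and with combo (0.139), and not detectably in MM1R. The TAK-981 and Dex duplicates of MM1S also shared a difference by gene length, and its part in these correlations was not tested. The replicate block raised the calls in the difference between lines under TAK-981 to 2061 of all genes and to 1 of the set (SENP7, 0.35), and in the MM1S interaction to 3579 and to 2 (SENP2 and SENP7). It gave 3 genes of the set for combo against TAK-981 in MM1S, 5 for combo against Dex in MM1R and 5 between the untreated lines.

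With no filter, Dex in MM1R had 30 calls over all genes, combo against TAK-981 in MM1R 9, the MM1R interaction 19 and the line difference under TAK-981 1313; calls in the set were 1 for the line difference under Dex and 0 for the MM1S interaction and for combo against TAK-981 in MM1S. DESeq2 also gave 0 for the latter. When the model held the compared groups alone, calls in the set were 0 for combo against TAK-981 in MM1S, 1 for combo against Dex in MM1S, 5 for combo against Dex in MM1R, 5 between the untreated lines and 0 for the MM1S interaction, and over all genes 3 for combo against TAK-981 in MM1R and 779 for the MM1S interaction.

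With 1 library left out, calls over all genes reached 1 for Dex, for combo against TAK-981 and for the interaction in MM1R, and ran from 205 to 2329 for the line difference under TAK-981 and from 1066 to 3759 for the MM1S interaction, both highest without MM1S TAK-981 replicate 1. Calls in the set fell to 1 for TAK-981 in MM1S, to 3 for combo in MM1R, to 2 for combo against Dex in MM1S, to 1 between the untreated lines and to 1 for the line difference under Dex, rose to 1 for the line difference under TAK-981, and ran from 0 to 3 for combo against TAK-981 in MM1S and from 0 to 2 for the MM1S interaction. The lowest count behind any value of the set was 204, for SENP3. Level per kb used 2 other lengths, and RNF4 and SENP5 kept the top 2 places with both. The other counts of calls stayed within 1.5 times under every setting run.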

Other observations

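SENP8, which shares the SENP fold but acts on NEDD8 and not on SUMO, was chosen for mention after its values were seen. It changed by 0.67 on the log2 scale under Dex in MM1S (standard error 0.238, edgeR adjusted p = 0.0291), from a mean of 1.75 to 2.78 CPM. These levels lay below those of every gene of the set, and the Dex libraries of MM1S stood apart from each other over all genes. Under TAK-981 the estimates of SENP8 were 0.03 in MM1S (edgeR adjusted p = 0.931) and −0.17 in MM1R (edgeR adjusted p = 0.529).

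The nucleolar partners of SENP3 and SENP5 differed between the untreated lines, with 5 of 7 genes higher in MM1R and 0 lower. Of all 14215 tested genes, 3637 were higher and 3213 lower, 48.2% in either direction. There SENP3 was at 0.23 (edgeR adjusted p = 0.0704) and SENP5 at −0.05 (adjusted p = 0.558).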
